A study of Mus musculus with 2 samples.

Results

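The deposited small RNA tables from fed mouse liver list, beside the known microRNAs (miRNAs), a set of called hairpin loci that carry no miRNA name and only a number, and each is called here by that number. These unnamed loci were taken as every entry of the count tables whose identifier lacks the mouse miRNA prefix. There were 32 among 200 loci in replicate 1 and 33 among 220 in replicate 2. Matching by chromosome, strand and overlapping position gave 41 distinct unnamed loci among 244 distinct loci in all, and the other 203 carried a miRNA name. The tissue was liver from ad libitum fed mice of the wild-type strain C57BL/6, 2 to 3 months of age, in 1 group of 2 replicate libraries made from total RNA. Whether each replicate is a different animal is not in the labels, and the spread may then be only technical. Where a number pair such as locus 20/40 is given, the slash joins the number in replicate 1 to that in replicate 2.

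A miRNA is cut from a short hairpin by Drosha and Dicer, which leaves a duplex of narrow length whose strands lie on opposite sides of the stem. Other abundant structured RNAs also appear as short reads in small RNA libraries: transfer RNAs (tRNAs), which carry amino acids to the ribosome and receive a CCA tail after transcription, ribosomal RNAs (rRNAs), small nucleolar RNAs (snoRNAs), which guide chemical modification of rRNA, and Y RNAs, which bind the Ro60 protein. Many of these genes exist in near-identical copies, so a short read can fit several places in the genome. The position listed for a locus is therefore 1 possible source, and no source used here says how reads with several positions were treated.

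The tRNA-derived fragments carry the largest locus of the set and lie at both ends of tRNA genes. Locus 5 overlaps no tRNA gene and is added only for its last 3 letters. Its likeness to tRNA gene sequences was not tested. The sequences are printed as listed, 5′ to 3′, with a terminal CCA in capitals where the fragment has one outside an rRNA gene. Numbers after the slash are the form listed in replicate 2 and are printed separately.
Locus 2 (glycine tRNA n-TGgcc4): gcauuggugguucagugguagaauucuc
Locus 30 (mitochondrial glutamine tRNA mt-Tq): uaggauaagguguuuagguagcacggagaa
Locus 49 (mt-Tq, replicate 2): uaggauaagguguuuagguagcacggag
Locus 8 (alanine tRNA n-TAagc16): ggggguguagcucagugguagagcgcgu
Locus 33 (n-TAagc16, replicate 2): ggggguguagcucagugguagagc
Locus 20 (alanine tRNA n-TAtgc10): uccccggcaucuccaCCA
Locus 40 (n-TAtgc10, replicate 2): uccccggcaccuccaCCA
Locus 5 (no small RNA gene): ucccggacgagcccCCA
The first 5 of these sequences begin at the first base of the annotated tRNA gene, and the alanine tRNA fragment that follows them ends at the CCA tail.

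The next group holds fragments of rRNA genes, loci 3 and 47, and locus 42. Loci 3 and 47 are partly alike to the annotated 5.8S rRNA gene n-R5-8s1. No other 5.8S rRNA sequence was compared with them. Locus 42 is close to miR-151-3p and lies outside rRNA genes. The group is shown for the largest locus of replicate 2 and for single bases that differ from the reference. In this group a capital marks a base that differs from the reference sequence at the listed position, except in locus 47, where it marks the base that differs from locus 3. Loci 3 and 47 were not compared with a reference at their positions.
Locus 23 (rRNA gene Gm24601): uaauGugaauugcaggacaca
Locus 3 (intron of Chst11): cgccugucugagcgucgcuu
Locus 47 (intron of Gm26786): cgccugucugagcguGgcu
Locus 12 (Rn18s-rs5): uuguugguuuucggaacugaggcca
Locus 37 (Rn18s-rs5, replicate 2): guugguuuucggaacugaggcca
Locus 42 (antisense to Tecrl): cuaGacugaggcuccuugaa

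The 4 of 6 snoRNA fragments that contain a short sequence element of box C/D snoRNAs are shown, and loci 18 and 26, which contain neither element, are left out. Box C/D snoRNAs are the class that guides methylation of ribose in rRNA. Capitals mark CUGA, the letters of the D box, or UGAUGA, the letters of the C box, both searched on the listed strand.
Locus 16 (Snord12): gccaguuuuguCUGAug
Locus 15 (Gm24134): aCUGAgcuuuuuaaccCUGAgc
Locus 17 (Gm24016): uacgcuauuCUGAgccg
Locus 9 (Snord83b): guucugUGAUGAggcuc
CUGA was present in 12 of the 41 unnamed and 30 of the 203 named fragments, and UGAUGA in 1 of each set. A match is only a run of letters and was not taken as evidence of a site.

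The unnamed loci held 16231 of 323447 listed counts in replicate 1, or 5.02% with an exact Clopper-Pearson 95% interval of 4.94 to 5.09. In replicate 2 they held 13608 of 553325, or 2.46% (2.42 to 2.50). The mean was 3.74% ± 1.81 (SD, n = 2), and the intervals of the libraries did not overlap. Intervals here cover counting error only, since reads without molecular identifiers are not independent molecules. The counts were concentrated in a few loci. The 5 most counted unnamed loci held 88.0% of unnamed counts in replicate 1 and 88.3% in replicate 2, and a single locus held 63.0% and 57.8%. That locus was locus 2 in replicate 1 and locus 23 in replicate 2. At the other end, 10 loci of replicate 1 and 11 of replicate 2 had fewer than 10 counts, and the median was 52 and 29 counts per locus against 61.5 and 56 for named loci.

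**Figure D1:**
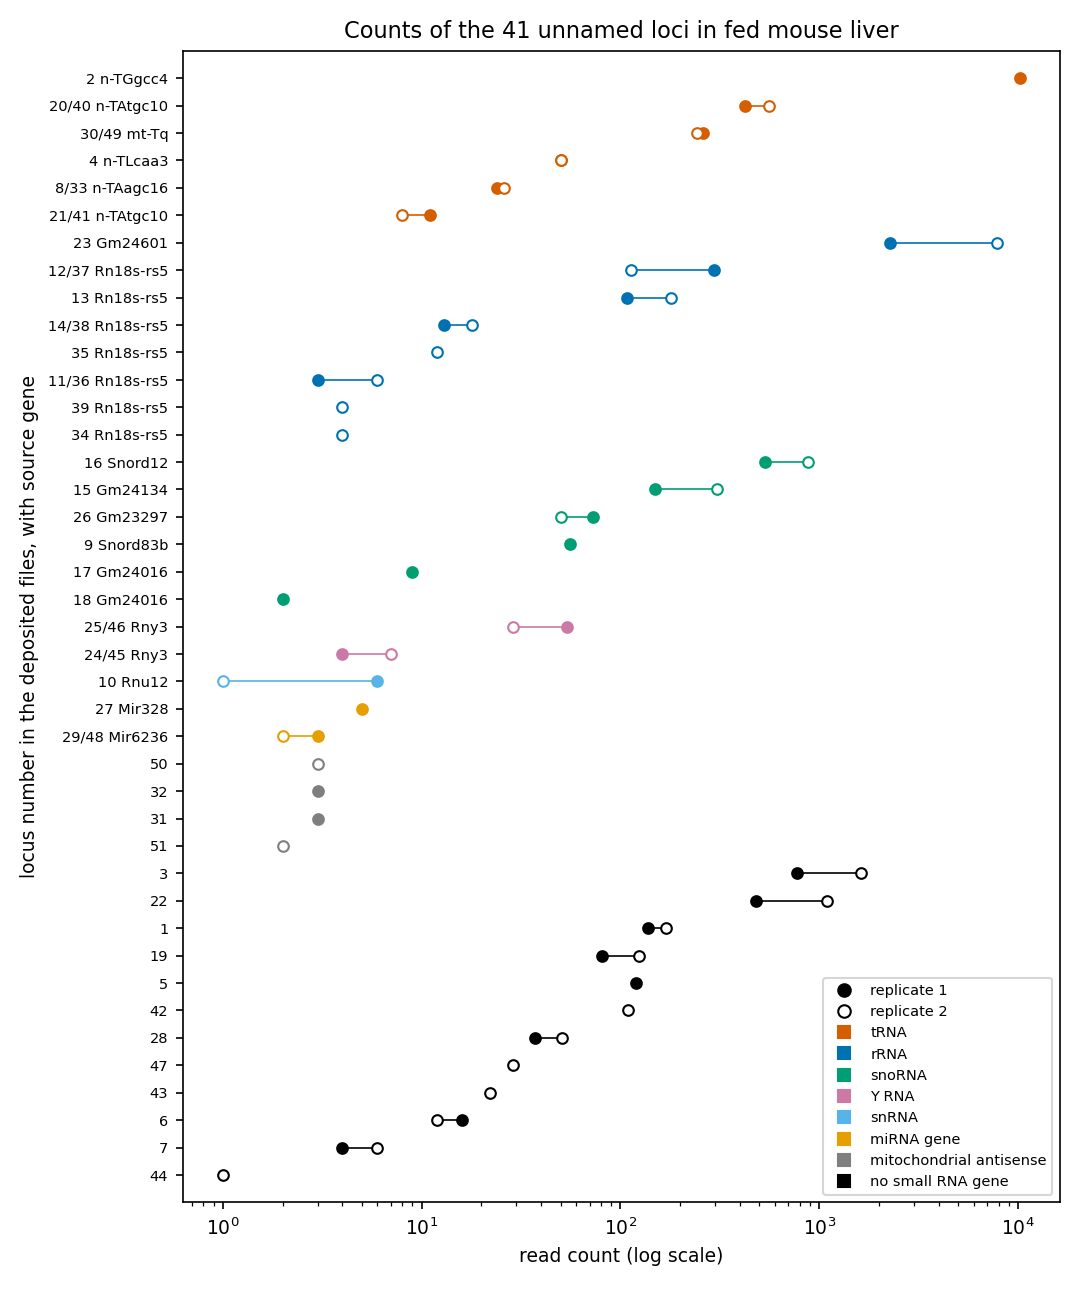
Read counts (log scale) of the 41 unnamed loci, 1 line per locus, grouped by colour into the class of the overlapping small RNA gene. Filled points are replicate 1 and open points replicate 2, and a locus with 1 point was listed in that library only; locus 2, at 10221 counts, stands alone at the top.

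By class, 6 distinct loci lay in tRNA genes, 8 in rRNA or rRNA-related genes, 6 in snoRNA genes, 2 in a Y RNA gene, 1 in a small nuclear RNA gene and 2 in annotated miRNA genes. A further 4 lay on the mitochondrial genome opposite to protein-coding genes, and 12 overlapped no annotated small RNA gene on their strand. Classes rest on the listed position alone, so the share of a class may leave out fragments whose source is a copy elsewhere. The tRNA class held 3.40% of listed counts in replicate 1 and 0.160% in replicate 2, whereas rRNA held 0.833% and 1.48%. snoRNA shares were close to each other, at 0.256% and 0.224% (mean 0.240% ± 0.0227, SD, n = 2), and loci with no small RNA gene held 0.508% and 0.586%. The remaining classes were small. Y RNA fragments held 58 and 36 counts, and the snRNA locus, the miRNA gene loci and the mitochondrial antisense loci had at most 8 counts per class and library. The higher class therefore differed between the libraries: tRNA in replicate 1 and rRNA in replicate 2.

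Presence in both tables divided the set. There were 24 loci in both libraries, 8 in replicate 1 only and 9 in replicate 2 only. Named loci also included some listed in 1 library only: 168 were in replicate 1 and 187 in replicate 2, among 203 distinct ones. Listing in 1 library was thus not particular to the unnamed set. Of the 24 unnamed loci in both libraries, 14 were listed with the identical sequence. Another 5 shared only the 5′ end, 2 shared only the 3′ end, 2 had the same ends but a changed sequence between them, and 1 shared neither end. All tRNA loci but locus 2, both Y RNA loci and the snRNA locus were in both libraries, whereas none of the 4 mitochondrial antisense loci was. Most of the loci in 1 library were rare, with a median of 5 counts, and 13 of the 17 had fewer than 50. The exceptions were locus 2 with 10221, locus 5 with 120 and locus 9 with 56 counts in replicate 1, and locus 42 with 109 counts in replicate 2. The tables list called loci only, so a locus missing from a table was not listed there, and its count is not known to be 0.

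Locus 2 was the 5′ part of a glycine tRNA with the anticodon GCC. It had 10221 counts in replicate 1, which ranked 7 among all loci of that library, and it was not listed in replicate 2. The fragment lay at 171044985 to 171045012 on the plus strand of chromosome 1 (GRCm38) and covered bases 1 to 28 of the gene's 71. RefSeq (GRCm38.p6) has 14 genes of this family among 430 tRNA genes, and the tables cannot tell which of them gave the reads. This locus accounted for most of the difference in tRNA share: without it the tRNA class had 768 and 886 counts, or 0.237% and 0.160% of listed counts. Without locus 2 the unnamed share of replicate 1 fell below that of replicate 2, at 1.86% against 2.46%.

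The other tRNA loci were listed in both libraries at similar raw counts. Replicate 2 had the larger total of listed counts, 553325 against 323447, so each was a lower share of listed counts there. mt-Tq, the glutamine tRNA of mitochondria, gave 259 counts as locus 30 and 243 as locus 49, with the same 5′ end at base 1 and ends at bases 30 and 28 of 71. The leucine tRNA n-TLcaa3 gave locus 4, bases 1 to 15 of 107, with 50 counts in each library. The alanine tRNA n-TAagc16 gave locus 8/33 with 24 and 26 counts, starting at base 1 and ending at base 28 in replicate 1 and base 24 in replicate 2. In all, 5 of the 6 tRNA loci began at base 1 of the annotated gene. None of the 6 lay wholly in the interior.

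Both ends of the alanine tRNA gene n-TAtgc10 had a listed locus. Its 5′ fragment, locus 21/41, had 11 and 8 counts and covered bases 1 to 18 in replicate 1 and 1 to 22 in replicate 2. Its 3′ fragment, locus 20/40, had 424 and 559 counts. That fragment started at base 58 of the 72-base gene and ran 3 bases past the annotated end, and those last 3 bases are the CCA in capitals above. The forms listed in the 2 libraries differed at 1 base, U10C, counted from 1 at the 5′ end of the fragment with the base of locus 20 first. The 5′ fragment held 2.53% of the counts of this hairpin in replicate 1 and 1.41% in replicate 2. RefSeq has 11 genes of the n-TAtgc family, 13 of n-TAagc and 4 of n-TLcaa.

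**Figure D2:**
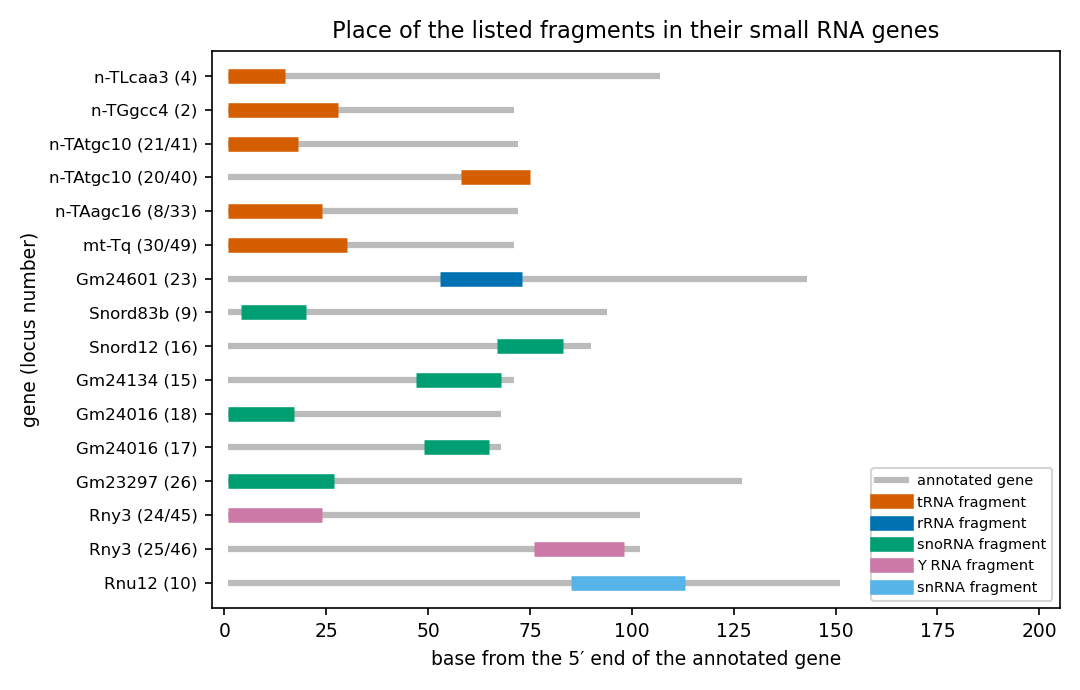
Place of listed fragments (coloured) within their annotated small RNA genes (grey), in bases from the gene's 5′ end. Loci in Rn18s-rs5 and in miRNA genes are not drawn. For loci whose ends differed between libraries the form with more counts is drawn. 5 of the 6 tRNA fragments start at base 1, and the fragment of n-TAtgc10 at bases 58 to 75 runs past the gene's end.

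The terminal CCA was uncommon elsewhere in the set. It was found in 3 of the 41 unnamed and 2 of the 203 named fragments. The other unnamed fragments that ended so were locus 5 (120 counts, replicate 1 only), which overlapped no annotated tRNA gene at 20292239 to 20292255 of chromosome 11, and locus 12/37, where the letters are part of the Rn18s-rs5 gene sequence.

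Locus 23 was the most counted rRNA-like locus and the most counted unnamed locus of replicate 2. The libraries listed 2273 and 7860 counts of it, which ranked 21 and 16 among all loci. Its listed position is 94826851 to 94826871 on the minus strand of chromosome 6, bases 53 to 73 of the 143-base rRNA gene Gm24601. The fragment equals that gene at 20 of 21 bases, with the difference A5G (the reference base first, then its position from the 5′ end of the fragment and the listed base). It also equals bases 58 to 78 of the 148-base gene n-R5-8s1 at 20 of 21, with the difference C10U. n-R5-8s1 is named as a gene of 5.8S rRNA, a part of the large ribosomal subunit. The fragment thus matched neither of these annotated genes in full, and each gene matched it where the other did not. No other 5.8S rRNA sequence was compared, so a full match elsewhere was not tested.

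The other 7 rRNA-related loci lay in Rn18s-rs5, which RefSeq annotates as a copy related to 18S rRNA, the RNA of the small ribosomal subunit. GENCODE M21 annotates the long noncoding RNA Gm42418 over 5 of them and an rRNA gene, CT010467.1, on the opposite strand. These loci summed to 420 counts over 4 loci in replicate 1 and 337 over 7 loci in replicate 2. The most counted was locus 12/37, with 296 counts at bases 895 to 919 and 113 counts at bases 897 to 919 of the 1849-base gene. The form in replicate 2 was shorter by 2 bases at the 5′ end only.

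Locus 13 followed with 108 and 180 counts of the identical 15-base fragment at bases 1426 to 1440. On the opposite side of its hairpin lay locus 14/38, with 13 and 18 counts, at bases 1512 to 1536 in replicate 1 and 1 base longer in replicate 2. That extra base differed from the reference (A26U). The remaining 4 were rare: locus 11/36 had 3 and 6 counts, and locus 34, locus 35 and locus 39 were listed only in replicate 2 with 4, 12 and 4. The fragments were thus spread along the gene from base 53 to base 1788.

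Locus 16 from Snord12 was the most counted snoRNA fragment, with 537 and 882 counts of the identical 17-base sequence. Snord12 is a box C/D snoRNA that lies within the noncoding host gene Zfas1. The fragment covers bases 67 to 83 of 90 in the GENCODE annotation. In the RefSeq annotation, where the gene has 66 bases, it covers bases 50 to 66 and so ends at the annotated 3′ end. Locus 15 from Gm24134, a snoRNA gene inside Rpl7a, had 150 and 305 counts at bases 47 to 68 of 71. Both fragments lay near the 3′ end of their gene and both contain CUGA.

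The other snoRNA fragments came from the 5′ part or were rare. Locus 26, the first 27 bases of the 127-base Gm23297 in an intron of Nap1l4, had 73 and 50 counts. Locus 9 from Snord83b in Rpl3 had 56 counts in replicate 1 only, and the GENCODE and RefSeq annotations place its start differently, at base 4 of a 94-base gene and upstream of a 77-base gene. Gm24016 in Rps20 gave a fragment from each end, locus 18 at bases 1 to 17 with 2 counts and locus 17 at bases 49 to 65 of 68 with 9 counts, in replicate 1 only. Of the 3 host genes that encode ribosomal proteins, Rpl7a was the only one whose fragment was in both libraries.

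Rny3, which encodes the Y3 RNA, also gave a fragment from each end. The 5′ fragment locus 24/45 started at base 1 and had 4 and 7 counts. The 3′ fragment locus 25/46 had 54 and 29 counts and ended at base 98 of 102 in both libraries, starting at base 76 in replicate 1 and base 75 in replicate 2. The 3′ fragment was the more counted in both. Rnu12, the U12 small nuclear RNA of the minor spliceosome, gave locus 10 from bases 85 to 113 of 151, with 6 counts and 1 count.

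Fragments inside annotated miRNA genes were at most 5 counts per library. Locus 27 lay on the 5′ side of Mir328 with 5 counts in replicate 1 only. Locus 29/48 lay in Mir6236 with 3 and 2 counts. The mitochondrial antisense fragments were as rare. Locus 31 and locus 32, opposite to mt-Cytb (cytochrome b), had 3 counts each in replicate 1, and locus 50 and locus 51, opposite to mt-Nd4 (a subunit of respiratory complex I), had 3 and 2 counts in replicate 2. In each library the pair lay on the 2 sides of a single called hairpin.

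The 12 loci with no small RNA gene were led by locus 3 in an intron of Chst11 on chromosome 10 (82994021 to 82994040), with 769 and 1629 counts. Over its first 17 bases, it equals the last 17 bases of n-R5-8s1, bases 132 to 148, at 13 positions, with the differences A2G, C7U, A15U and A16C. Locus 47, listed on chromosome 8 in replicate 2 with 29 counts, equals locus 3 at 18 of 19 bases (C16G). These 2 fragments, listed on different chromosomes, thus share nearly their whole sequence.

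Locus 22 in an intron of Cdk8 had 480 and 1091 counts, against 1 count for locus 44 on the other side of the same hairpin in replicate 2. Locus 1 on chromosome 1 had 137 and 170 counts, and locus 19 in an intron of Bend4 had 81 and 124. Likeness of locus 1 to tRNA gene sequences was not tested. Locus 28, opposite to Egln1, had 37 and 51 counts. All of these were listed in both libraries with the identical sequence, apart from locus 44. Locus 43 was listed in replicate 2 only, with 22 counts.

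Locus 42 stands close to a named miRNA in sequence. It was listed in replicate 2 with 109 counts at 83278374 to 83278393 on the plus strand of chromosome 5, opposite to Tecrl. It equals miR-151-3p at 19 of 20 bases, the seed included, with the difference G20A. Against the reference at its own listed position it has U4G, and there the listed base is the base of miR-151-3p. miR-151-3p itself was listed at its own gene on chromosome 15 with 3628 and 8492 counts.

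Differences from the reference were more frequent among unnamed than named loci. A reference sequence was at hand for 29 of the 41 unnamed and all 203 named loci. Among loci with no small RNA gene, only loci 19, 28 and 42 had one. The reference is that of the listed position, which for an unnamed locus is 1 possible source. The sets are thus not compared on equal terms. At least 1 base differed in 9 of the 29 (31.0%) and in 25 of the 203 (12.3%). Leaving out the last 2 bases, where miRNAs often carry added bases, 7 of the 29 (24.1%) and 4 of the 203 (1.97%) differed. The unnamed loci with such an internal difference included locus 23, locus 19 (A8G), locus 28 (C7A), locus 42 and 2 forms at the same Rn18s-rs5 position, locus 11 (A4G) and locus 36 (G3A). The listed hairpin sequences carry the bases of the reads, so these differences are visible only against the reference. Their cause was not tested.

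The fragments were less uniform in length than miRNAs. The median was 21 bases in unnamed and 22 in named loci, but the range was 15 to 34 against 16 to 27, and the quartiles were 17 and 25 against 21 and 23. Only 12 of 41 unnamed loci (29.3%) were 20 to 24 bases long, against 179 of 203 named loci (88.2%). By library, they were 7 of 32 in replicate 1 and 15 of 33 in replicate 2, and these loci held 23% and 82.4% of unnamed counts. Shorter fragments numbered 18 of 41 against 19 of 203, and longer ones 11 of 41 against 5 of 203. The snoRNA loci were mostly short, with a median of 17 bases. Loci are not replicates of a condition, so these differences are descriptions with no test.

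The hairpins called around the unnamed fragments were longer and folded less stably. Their median length was 78 bases against 59 in named loci, and 19 of the 41 exceeded the longest named hairpin, 79 bases. The minimum free energy computed with RNAfold was -28.2 kcal/mol per 100 bases at the median, against -41.3, and 31 of the 41 lay above the upper quartile of named loci, -37.3. The deposited structures had 2 or more terminal loops in 9 of 41 unnamed and in 0 of 203 named loci. The share of fragment bases that were paired was 75% against 82.6% at the median. The sets overlapped in part: 11 of the 41 lay above the highest named energy, and the others lay within the named range. At the other end, locus 28, in a hairpin of 89.8% GC, had a folding energy of -71.7, close to the lowest named value of -76.1.

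**Figure D3:**
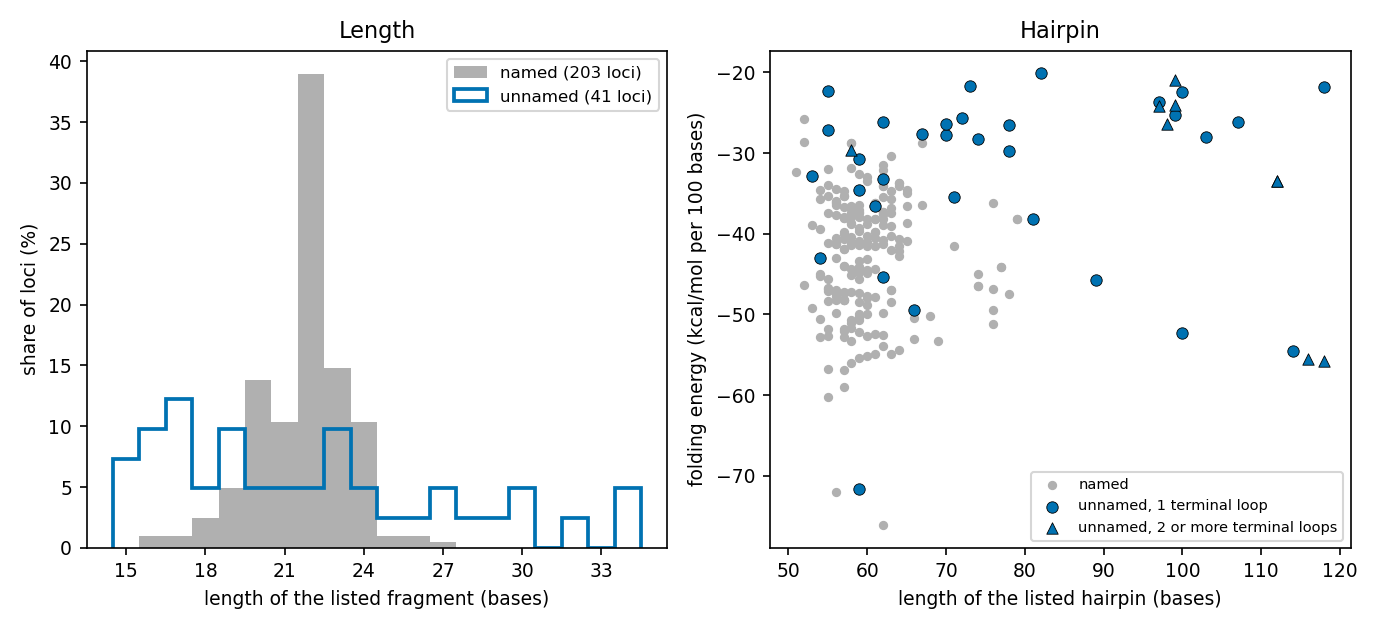
Left, length of the listed fragment in bases as the share of loci, for 203 named (grey) and 41 unnamed loci (blue line). Right, hairpin length against folding energy per 100 bases; the unnamed loci spread to 118 bases and 31 of 41 lie above the upper quartile of the named loci in energy, and triangles mark the 9 with 2 or more terminal loops.

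Of the 25 distinct loci with a gene, the called hairpin lay wholly inside the gene in 16 and reached outside it in 9. Hairpins are printed in lower case with the listed fragment in capitals, to compare 2 tRNA loci with miR-22-3p, the most counted miRNA of both libraries.
Locus 2 hairpin: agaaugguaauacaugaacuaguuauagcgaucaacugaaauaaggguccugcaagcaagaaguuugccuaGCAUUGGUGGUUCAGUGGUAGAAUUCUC
Locus 20 hairpin: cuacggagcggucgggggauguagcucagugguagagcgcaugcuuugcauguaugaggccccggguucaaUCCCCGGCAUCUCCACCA
mmu-miR-22-3p hairpin: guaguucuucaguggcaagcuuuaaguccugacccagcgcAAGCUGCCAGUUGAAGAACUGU
The hairpin of locus 2 has 99 bases, of which the 28 of the fragment itself are in the tRNA gene and the others precede it. It folded at -20.9 kcal/mol per 100 bases with 2 terminal loops. The hairpin of locus 20 has 89 bases and contains the whole tRNA gene, and it folded at -44.2. The hairpin of miR-22-3p has 62 bases with 1 loop and folded at -42.6 in the form listed in replicate 1.

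Both sides of a hairpin were seen less often among unnamed loci. In replicate 1, 7 of 25 unnamed hairpins had a fragment from both sides, against 61 of 107 named hairpins. In replicate 2 these were 7 of 26 and 67 of 120. Pairs were sought within each set only, so a hairpin shared by an unnamed and a named locus was not counted as a pair. Where both sides were listed, the weaker side could be rare: in the Rn18s-rs5 hairpin of locus 11/36 and locus 12/37 the 5′ side held 1.00% and 5.04% of the counts, and in Rny3 6.90% and 19.4%. In the hairpin of locus 13 and locus 14/38 the 5′ side held most, 89.3% and 90.9%. The more counted side was the same in both libraries for both Rn18s-rs5 hairpins and for those of n-TAtgc10 and Rny3. Listed fragments lay on the 3′ side in 22 of 41 unnamed and 93 of 203 named loci.

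Base composition differed at the 5′ end. The first base was G in 15 of 41 unnamed loci (36.6%) and 20 of 203 named loci (9.85%). It was U, the base favoured at the 5′ end of miRNAs in Argonaute, in 8 of 41 (19.5%) and 80 of 203 (39.4%). GC content of the fragment was 54.2% and 50% at the median. Its range was wide in the unnamed set, from 36.7% in a mitochondrial antisense fragment to 82.4% in locus 35.

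The libraries were then compared locus by locus with a 2-sided exact binomial test at TMM library sizes and Benjamini-Hochberg adjustment over all 152 names and loci tested. Such a test compares the libraries, not conditions, and its p-values count sampling of reads only. It called 43.4% of everything tested, with 22.4% higher and 21.1% lower in replicate 2. Of the 21 unnamed loci tested, 8 were called, 4 higher and 4 lower, and 13 were not. The other 20 were not tested because they were listed in 1 library or had fewer than 10 counts summed. The median log2 ratio of replicate 2 to replicate 1 was -0.15 in unnamed loci and 0.00 in everything tested, and the median absolute ratio 0.47 and 0.34.

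**Figure D4:**
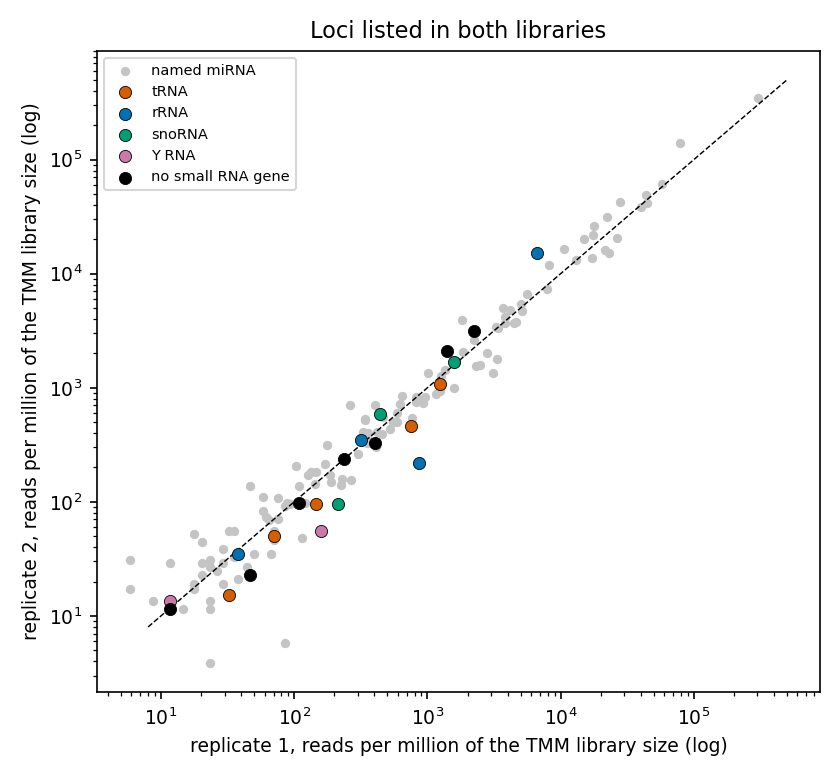
Counts per TMM library size (CPM) in replicate 1 and replicate 2 (both axes log) for the entries tested, named miRNAs in grey and unnamed loci coloured by class. The dashed line marks equal levels; locus 23, at 6651 and 15096, lies above it and locus 12/37, at 866 and 217, below it.

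The largest upward difference among unnamed loci was that of locus 23, with 6651 and 15096 CPM at the TMM library size. The log2 ratio was 1.18 (95% interval 1.11 to 1.25) with an adjusted p of 2.57e-294 in the exact binomial test. Locus 22 followed at 0.58 (0.42 to 0.73), then locus 3 at 0.47 (0.35 to 0.60) and locus 15 at 0.41 (0.13 to 0.71, adjusted p = 0.0106 in the exact test). Scaled to the totals of listed counts, locus 15 was at 0.25 and no longer past the threshold (adjusted p = 0.165, exact test).

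Downward, the Rn18s-rs5 fragment locus 12/37 fell by 1.99 on the log2 scale (interval -2.32 to -1.68, adjusted p = 8.1e-40 in the exact binomial test), although locus 13 from the same gene was at 0.13 and not called. The Y RNA fragment locus 25/46 was at -1.49, the snoRNA fragment locus 26 at -1.15 and the mt-Tq fragment locus 30/49 at -0.70. Locus 12/37, locus 25/46 and locus 30/49 were also listed with different ends in the 2 libraries, and whether this contributed was not tested. Of the 5 tested tRNA loci, all had a log2 ratio below 0, and only mt-Tq was called. Locus 20/40 at -0.21 (adjusted p = 0.0585, exact test), locus 4 at -0.61 and locus 1 at -0.30 were not called, and with totals as the scale these 3 were called lower. Locus 20/40 was also called lower with TMM sizes from named miRNAs alone (-0.25, adjusted p = 0.0185, exact test).

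The tissue label was checked on the named miRNAs: miR-122-5p, the defining hepatocyte miRNA, ranked 11 in replicate 1 and 8 in replicate 2. In each library 5 of 6 hepatocyte markers were listed, with 14667 and 27523 counts. By number listed, endothelial markers were 2 of 2 in each library, and stellate and mesenchymal markers 3 and 4 of 5. Immune markers were 2 of 5 in each, bile duct markers 1 of 5 in each, and erythroid markers 0 and 1 of 4. Markers of other cells held fewer counts. Those of erythroid cells held 0 and 14 counts, of endothelial cells 136 and 191, of bile duct cells 60 and 163, of immune cells 1044 and 1140 and of stellate and mesenchymal cells 1696 and 1839. Which cells the unnamed fragments came from was not tested.

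Some loci of the same kind carry miRNA names. Of 31 named miRNAs from a list of those reported to overlap other small RNA genes, 3 were listed, with 4 fragments, each in both libraries. miR-664-5p and miR-664-3p, which lie in the snoRNA gene Snora36b, had 46 and 95 and 12 and 17 counts. miR-1839-5p, whose gene GENCODE types as a snoRNA, had 58 and 112. miR-6236 had 110 and 195 and carried A9G and A26G against the reference, in the same gene as the unnamed locus 29/48. These names held more counts than the unnamed fragments of the miRNA gene class.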

How the data were processed

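Small RNA of 2 liver libraries was measured. The counts deposited by the authors are whole reads per called locus, not normalised, and summed to 323447 and 553325. Tools in the submitters' processing notes were cutadapt 1.5, FastQC 0.11.2 and Bowtie 1.0.1, with GRCm38 as the build; the caller of the loci: not given in the sources used here. Positions were raised by 1. Loci were matched between tables by overlap of the listed fragment on the same strand; the written plan had taken that interval for the hairpin, so hairpin overlap became the alternative. Classes came from GENCODE M21 on the same strand, then the RefSeq table (GRCm38.p6), which gives no strand. Of the unnamed loci, 3 in tRNA genes (loci 2, 20/40 and 21/41) and 9 with no small RNA gene were not compared with a reference sequence. Where a locus was in both tables, its features were taken from the library with more counts. Shares carry exact Clopper-Pearson 95% intervals.

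Tests were 2-sided exact binomial tests (scipy 1.17.1) at TMM sizes (edgeR 4.0.16), for entries found in both tables and summing to at least 10 counts, with Benjamini-Hochberg adjustment, a threshold of 0.05 and a prior count of 0.5. The function was tested on simulated data. Folding used ViennaRNA 2.7.2. Alternatives changed the scaling (totals, TMM over named miRNAs, DESeq2 1.42.0 size factors), the count minimum, the class rule and the libraries used. Loci were named where they had at least 50 counts in a library, were among the 3 most counted of their class, passed the test, or lay in a miRNA gene or the mitochondrial genome; others were named after their values were seen, to account for the members. For 2 loci with no small RNA gene the individual values are not reported in the text. The members and lists were chosen with earlier results of these data known.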

Additional observations from a re-analysis of the deposited data

How the results depend on the processing

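No paired analysis was possible because the labels give only 1 group. All 24 matches held with hairpin overlap, and with overlap of at least 50% of the shorter interval. Classes from the deposited annotation alone moved the mitochondrial antisense share to 0% and the share with no small RNA gene to 2.42%, since that annotation calls the tRNA loci intergenic, which puts the tRNA share at 0% (1.78% as reported). The libraries alone gave 0.160% to 3.40% for tRNA and 2.46% to 5.02% for all unnamed loci. Leaving locus 2 out of counts and total, chosen after seeing the data, gave 0.203% and 2.19%. With unlisted loci entered as 0, 15 of 28 unnamed loci passed the exact test, in place of 8 of 21. Over everything tested, 93 of 177 passed, in place of 66 of 152. The unnamed loci added to this test were listed in 1 library only. The other 4 settings gave 8 to 10 unnamed loci and 66 to 69 of everything tested. Totals as the scale split all calls into 22 higher and 47 lower and the unnamed calls into 3 and 7. The median length difference (unnamed minus named) turned from -1 to 1 base when weighted by counts and was -1.5 to 0 with 1 library. The GC difference of 4.17 points was 0.974 weighted by counts, 11 for loci with at least 10 counts and 6.25 to 7.44 with 1 library. The energy difference of 13 kcal/mol per 100 bases was 19.6 and 9.43 in the first 2 of these settings. Apart from the settings whose construction is stated, the cause was not tested. Loci under 10 counts rest on few reads, and their places and ends are correspondingly uncertain.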
